A study of Rattus norvegicus and Mus musculus with 56 samples.

Results

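Neurons of the spinal dorsal horn were followed through 33 genes listed as markers of their excitatory and inhibitory subtypes. Whether each gene is confined to the dorsal horn, or to the class it is listed under, was not tested. The members were taken by name and matched by Ensembl identifier in the mouse read tables, where all 33 were found among 41388 identifiers. Of them, 20 were grouped as markers of excitatory and 13 as markers of inhibitory neurons. The rule for listing them used no value from these libraries, but the list was chosen with earlier results of these data known. Slc17a7 had too few reads for a test, so 32 of the 33 passed the filter on low counts, at about 10 reads in at least 3 libraries.

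The series holds 56 libraries, and the 24 from mice were used here. All mice carried the label WT and the strain C57BL/6, and both sexes were studied. They had spared nerve injury (SNI), an injury of the sciatic nerve that spares one of its branches, or sham surgery. Their lumbar dorsal horn was sampled on postoperative day 7, on the operated (ipsilateral) or the opposite (contralateral) side, for sequencing of poly(A) RNA. The 8 groups of 3 libraries were therefore SNI ipsilateral, SNI contralateral, sham ipsilateral and sham contralateral tissue, each from females and from males. The labels give no age, and they do not say how many animals a library holds or which libraries come from the same animal. Sides were compared as unpaired groups, and a p-value here refers to the spread among libraries, which may be technical.

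The dorsal horn receives the sensory fibres of the body and passes their signals on through local circuits. Most of its neurons are interneurons. Excitatory ones release glutamate, loaded into vesicles by a vesicular glutamate transporter, and inhibitory ones release GABA, glycine or both. Transcription factors set these identities during development, and neuropeptides, peptide receptors and calcium-binding proteins divide each class further. Circuits of these cells are known to take part in touch, itch and pain, including the pain that follows nerve injury.

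Depth was even across the mouse libraries, at 27.98 M to 42.9 M gene reads (M, counts of 1e6) with a median of 32.6 M. Levels are given as CPM, the reads of a gene per 1e6 gene reads after scaling, and log2 differences come from limma. A gene was called at a Benjamini-Hochberg adjusted p under 0.05 over all genes of a comparison. The tissue label was checked against markers of other cells. Motor neurons lie in the ventral horn, outside the dorsal horn, but all 5 motor neuron genes listed (Chat, Slc18a3, Slc5a7, Mnx1 and Isl1) had reads, with a summed level of 17.1 to 270 CPM over the 24 libraries. The mean log2 CPM of these 5 genes is called the motor neuron level below. Its median was 2.09 in SNI ipsilateral libraries (lowest 0.97, highest 3.19) and 3.51 in SNI contralateral ones (lowest 3.09, highest 4.55). In sham ipsilateral libraries it was 2.79 (lowest 2.38, highest 4.10), and in sham contralateral ones 3.48 (lowest 1.82, highest 3.95). Microglial genes, 8 in the list, summed to 469 to 747 CPM in SNI ipsilateral libraries and to 243 to 357 CPM in the others.

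Both transmitter classes were represented in every library. Levels of different genes are set side by side per kilobase of annotated exon. Median levels of the 32 tested members spanned 200-fold, and 29 of the 33 members had at least 1 CPM per kilobase. Among neighbours in the order of levels, 29 of 32 pairs had ranges over the 24 libraries that overlapped. The 3 gaps lay between Gad2 and Calb1, between Lhx1 and Grpr, and between Npffr2 and Slc17a7.

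**Figure D1:**
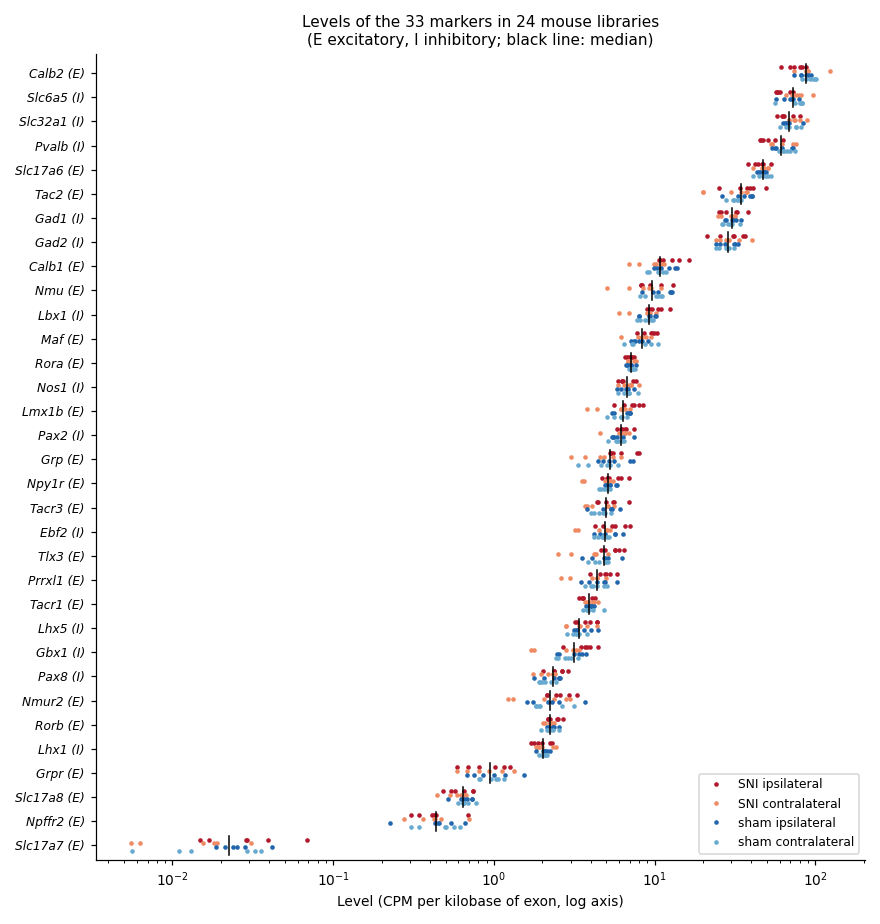
Level of each of the 33 markers in CPM per kilobase of exon on a log axis, 1 point per library, coloured by surgery and side, with the median over 24 libraries as a black line. Calb2, Slc6a5, Slc32a1 and Pvalb lead the order, and Slc17a7 lies far below the other markers.

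The transporters that define transmitter class were among the most abundant members. Slc17a6, the vesicular glutamate transporter VGLUT2 (ENSMUSG00000030500), had a median of 47.3 CPM per kilobase. Slc17a8, the transporter VGLUT3, had 0.644 CPM per kilobase, and the median ratio of Slc17a6 to Slc17a8 per kilobase was 72.6 over the 24 libraries. Slc17a7, the transporter VGLUT1 of many cortical neurons and large sensory neurons, had 1 to 11 reads per library and a median level of 0.0226 CPM per kilobase. Slc32a1, the vesicular transporter of GABA and glycine, had 68.4 CPM per kilobase, and Slc6a5, the glycine transporter GlyT2 of glycinergic neurons, had 72.1. Gad1 and Gad2, the enzymes that make GABA, had 30.1 and 28.7 CPM per kilobase. The ratio of Slc17a6 to Slc32a1 per kilobase had a median of 0.640 in SNI ipsilateral libraries (lowest 0.580, highest 0.849), 0.626 in SNI contralateral, 0.695 in sham ipsilateral and 0.676 in sham contralateral ones. These 4 sets of values overlapped.

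Transcription factors sat lower. Lmx1b, Tlx3 and Prrxl1, which specify or maintain glutamatergic dorsal horn neurons, had medians of 6.36, 4.86 and 4.41 CPM per kilobase. Maf, Rora and Rorb, found in neurons of the deeper laminae that receive touch fibres, had 8.35, 7.11 and 2.24. On the inhibitory side, Lbx1 had 9.27 CPM per kilobase, Pax2 had 6.17 and Ebf2 had 4.92. Lbx1 is also known in excitatory dorsal horn lineages, so its place in the inhibitory list is not exclusive. Lhx5, Gbx1, Pax8 and Lhx1, factors of inhibitory lineages, had 3.38, 3.13, 2.32 and 2.03 CPM per kilobase.

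Ligands exceeded their receptors per kilobase in all 24 libraries. Tac2, which encodes neurokinin B, had 34.3 CPM per kilobase and its receptor gene Tacr3 had 4.96, with ratios of 5.29 to 8.65. Nmu, encoding neuromedin U, had 9.63 and its receptor gene Nmur2 had 2.24, with ratios of 3.0 to 6.15. Grp, encoding gastrin-releasing peptide of the itch pathway, had 5.29 and its receptor gene Grpr had 0.945, with ratios of 3.25 to 11.3. Of the other receptors, Npy1r (neuropeptide Y) had 5.11, Tacr1 (substance P, a marker of projection neurons) had 3.93 and Npffr2 (neuropeptide FF) had 0.434 CPM per kilobase. Calb2 (calretinin) led all members at 87.0 CPM per kilobase, against 60.8 for Pvalb (parvalbumin) and 10.8 for Calb1 (calbindin), and Nos1, the neuronal nitric oxide synthase, had 6.76. The spread between libraries of a group was smallest for Rora, with an SD of 0.07 on the log2 CPM scale, and largest for Npffr2, with 0.39, against a median of 0.18 over the 32 tested members. Npffr2 had only 11 to 47 reads per library, and its SD exceeded that of 56% of the genes nearest in level. Over the tested members this share ran from 31.8% for Rora to 99.2% for Tac2 and Gad2.

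The first comparison asked which markers differed after SNI on the operated side. None of the 32 tested members was called, while 365 of 17602 genes (2.07%) were, 346 of them higher (1.97%) and 19 lower (0.108%). By unadjusted p under 0.05, 4 members and 2103 genes passed (11.9% of all genes). The differences of the members ran from -0.28 to 0.22 on the log2 scale, with a median of 0.05, against a median of 0.00 over all genes. All 32 intervals at 95% lay within 1.5-fold in either direction, as did those of 14533 of 17602 genes. No member had 6 SNI values that all lay above or all below the 6 sham values, which held for 1.49% of genes. In bulk tissue, fewer cells of a type and less RNA per cell cannot be told apart.

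Among excitatory members, 11 of 19 lay above and 8 below 0. Slc17a6 had a median of 245 CPM in SNI libraries (lowest 207, highest 285) and 252 CPM in sham libraries (lowest 235, highest 265), and its log2 difference was -0.04 ± 0.05 (SE; adjusted p = 0.80). The 6 SNI values spanned the whole sham range. Maf had 64.1, 78.8 and 85.2 CPM in SNI libraries and 59.1, 64.3 and 75.1 CPM in sham libraries as the lowest, median and highest values, with a difference of 0.22 ± 0.07 (adjusted p = 0.17). Calb2 had 107, 133 and 151 CPM in SNI libraries and 128, 147 and 164 CPM in sham ones, with a difference of -0.16 ± 0.06 (adjusted p = 0.21). The groups overlapped for both genes.

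Peptides and receptors of the itch and pain circuits were not called either. Grp had a median of 8.61 CPM in SNI libraries (lowest 7.83, highest 11.7) and 7.92 CPM in sham libraries (lowest 6.56, highest 10.8), with a difference of 0.15 ± 0.14. The difference was -0.12 ± 0.18 for its receptor gene Grpr, -0.20 ± 0.13 for Nmu, 0.18 ± 0.18 for Nmur2, 0.06 ± 0.14 for Tac2 and 0.05 ± 0.10 for Tacr3. It was -0.10 ± 0.05 for Tacr1, the substance P receptor gene, and 0.08 ± 0.08 for Npy1r. The smallest adjusted p among these 8 genes was 0.45. Npffr2, Slc17a8 and Calb1 had differences of -0.06 ± 0.21, -0.08 ± 0.13 and 0.10 ± 0.09. Of the excitatory transcription factors, Tlx3 was at 0.22 ± 0.12, Lmx1b at 0.16 ± 0.08, Prrxl1 at 0.12 ± 0.11, Rorb at 0.03 ± 0.05 and Rora at -0.01 ± 0.04.

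Inhibitory members showed the smallest adjusted p of the set. Pvalb, a marker of interneurons that act on touch fibres, had 47.3, 50.8 and 65.2 CPM in SNI libraries and 55.9, 61.8 and 75.8 CPM in sham libraries as the lowest, median and highest values. Of the 6 SNI values, 4 lay below every sham value, and the difference was -0.28 ± 0.07 (limma adjusted p = 0.090). It passed the threshold when female SNI replicate 3 or male SNI replicate 1 was left out, at -0.33 and -0.34. Slc32a1, Gad1 and Gad2 had differences of -0.04 ± 0.08, -0.02 ± 0.06 and 0.05 ± 0.13, and Slc6a5 one of -0.14 ± 0.07 (adjusted p = 0.49). Among the inhibitory factors, Gbx1 was at 0.22 ± 0.11, Lbx1 at 0.17 ± 0.07, Pax2 at 0.11 ± 0.07, Pax8 at 0.11 ± 0.09, Ebf2 at 0.10 ± 0.10, Lhx5 at 0.07 ± 0.08 and Lhx1 at -0.07 ± 0.08. The value of Nos1 was 0.00 ± 0.06. The 5 motor neuron genes had a median difference of -0.81 in the same fit with none called, and all 8 microglial genes were called higher, with a median of 1.05. The 5 blood genes listed (a sign of residual blood) had a median of -0.87, with none called. The part of the microglial and blood genes in the marker values was not tested. With the motor neuron level held in the model, again no marker was called.

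**Figure D2:**
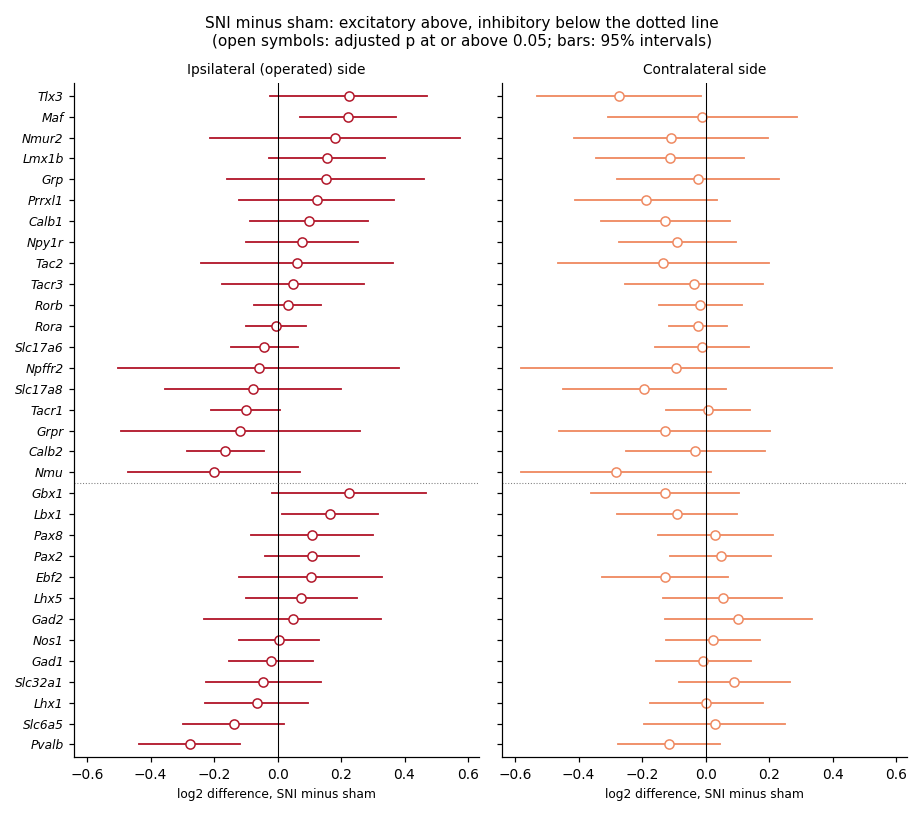
Log2 difference, SNI minus sham, of the 32 tested markers on the ipsilateral (left) and the contralateral side (right), with 95% intervals; all symbols are open because no marker was called. Ipsilateral values lie between -0.28 and 0.22, and most excitatory markers lie below 0 on the contralateral side.

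Other dorsal horn neuron genes were called in the same libraries. Of 39 such genes that are not among the 33, 3 were called higher and none lower on the operated side after SNI, with a median of 0.06 over the list. Over all genes 1.97% were called higher and 0.108% lower. Gal, encoding the neuropeptide galanin, had a median of 18 CPM in SNI libraries (lowest 8.54, highest 25.3) and 6.51 CPM in sham libraries (lowest 5.45, highest 9.36), a log2 difference of 1.25 ± 0.20 (adjusted p = 0.0076). Npy, encoding neuropeptide Y of inhibitory interneurons, had 19.6 and 13.8 CPM in SNI and sham libraries as medians and differed by 0.55 ± 0.12 (adjusted p = 0.028). The Npy call held in 6 of 12 fits that each left out a library. It was lost without female SNI replicate 1 or 2, male SNI replicate 1 or 2, or female sham replicate 1 or 3, at differences of 0.50 to 0.55. Rspo3, a secreted Wnt signalling enhancer, differed by 0.42 ± 0.09 (adjusted p = 0.015), a call that was lost without female SNI replicate 2, at 0.40.

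On the contralateral side no gene was called by limma, 0 of 17580 (0%), with 332 genes at an unadjusted p under 0.05 (1.89%). No marker had groups that did not overlap, which held for 0.0554% of genes. The 32 markers had a median log2 difference of -0.03 between SNI and sham. All their 95% intervals again lay within 1.5-fold, as did those of 14722 of 17580 genes. Among excitatory markers 18 of 19 lay below 0, with a median of -0.09, whereas 8303 of all 17580 genes lay below 0. Inhibitory markers lay on both sides, 8 of 13 above 0, with a median of 0.02. Tlx3 was the only marker at an unadjusted p under 0.05, at -0.27 ± 0.12 (adjusted p = 1.0). Its values were 3.84, 6.48 and 7.83 CPM in SNI libraries and 5.87, 7.24 and 7.85 CPM in sham libraries as the lowest, median and highest, so the groups overlapped. All 5 motor neuron genes lay above 0 there, with a median of 0.44.

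Within SNI mice the operated and the opposite side were then compared. Here 7 of the 32 tested markers were called, all higher on the operated side, against 1213 of 18058 genes called (6.72%), 631 of them higher (3.49%) and 582 lower (3.22%). At an unadjusted p under 0.05 stood 15 markers and 19.9% of all genes. Without scaling factors the genes split into 802 higher and 355 lower, and the same number of markers was called, all higher. The 7 were the transcription factors Tlx3, Gbx1, Ebf2, Lmx1b and Lbx1, the peptide gene Grp and the calcium-binding protein gene Calb1. They came from both lists, 4 of 19 excitatory and 3 of 13 inhibitory markers, and Lbx1 of the inhibitory list is not exclusive to that class. The median difference was 0.13 over the 32 markers, 0.22 over excitatory and 0.05 over inhibitory ones, and 0.00 over all genes. For none of the 33 markers did the 6 ipsilateral libraries lie apart from the 6 contralateral ones, which held for 2.6% of all genes.

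Tlx3 (ENSMUSG00000040610, GRCm38 chr11:33200752-33203589) is a selector gene of glutamatergic identity. Its lowest, median and highest values were 7.14, 8.73 and 9.85 CPM on the operated side and 3.84, 6.48 and 7.83 CPM on the opposite side. Of the 6 operated-side values, 4 lay above every value of the opposite side, and the log2 difference was 0.54 ± 0.13 (limma adjusted p = 0.011). Gbx1 (ENSMUSG00000067724, chr5:24502757-24527202), a factor of inhibitory neurons, had 9.34, 13 and 15.4 CPM on the operated side and 5.94, 10.2 and 11.8 CPM on the opposite side. The difference was 0.50 ± 0.12 (adjusted p = 0.013), and the lowest operated-side value lay inside the range of the opposite side. Calb1 (ENSMUSG00000028222, chr4:15881264-15908064) had 51.6, 58.1 and 79.5 CPM on the operated side and 33.8, 48.9 and 55.4 CPM on the opposite side, a difference of 0.40 ± 0.10 (adjusted p = 0.016). Its groups overlapped between 51.6 and 55.4 CPM.

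Grp had 7.83, 8.61 and 11.7 CPM on the operated side and 4.48, 6.95 and 9.14 CPM on the opposite side, with a difference of 0.47 ± 0.14 (adjusted p = 0.048). Lmx1b (ENSMUSG00000038765, chr2:33560965-33640511), which maintains glutamatergic neurons, had 27.3, 35.7 and 41.5 CPM on the operated side and 18.4, 30.2 and 34.2 CPM on the opposite side, with a difference of 0.36 ± 0.10 (adjusted p = 0.041). Lbx1 (ENSMUSG00000025216, chr19:45232684-45235812) and Ebf2 (ENSMUSG00000022053, chr14:67233292-67430918) differed by 0.31 ± 0.09 (adjusted p = 0.032) and 0.37 ± 0.11 (adjusted p = 0.042). An antisense gene overlaps 6.12% of the exon length of Ebf2. In each of the 7 genes the 2 lowest of the 6 contralateral values came from female replicates 2 and 3.

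**Figure D3:**
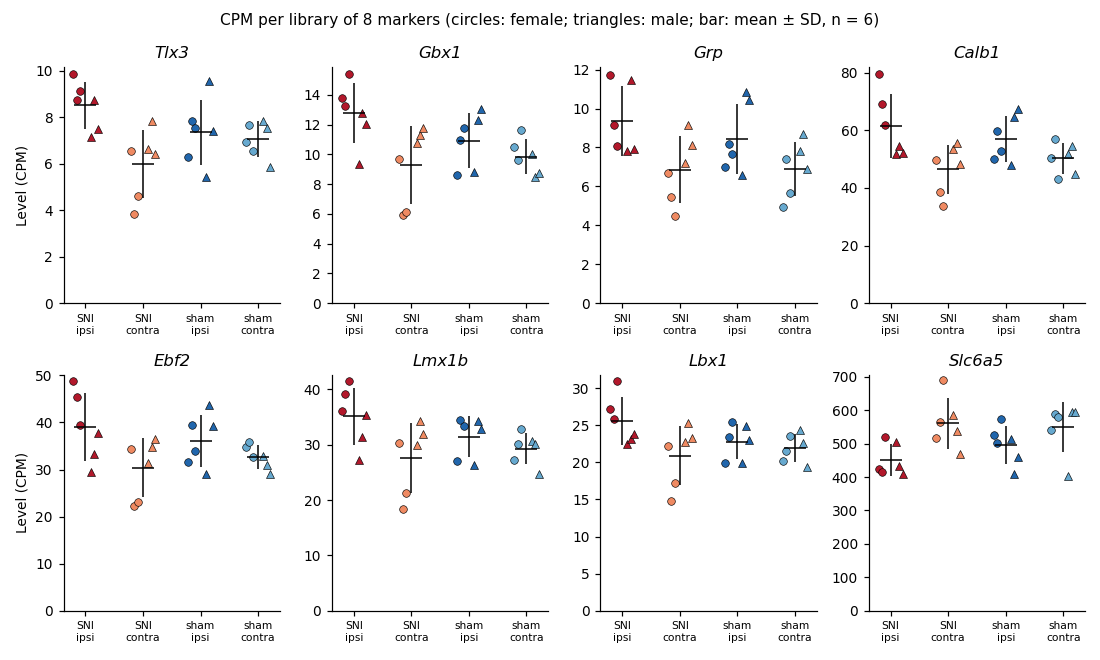
CPM in each library of the 7 markers called between the sides in SNI and of Slc6a5, with the mean ± SD of 6 libraries; circles are female and triangles male libraries. Tlx3 averaged 8.51 ± 1.03 CPM in SNI ipsilateral and 5.98 ± 1.47 CPM in SNI contralateral libraries, where 2 female libraries lie lowest in each of the 7 genes.

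Further markers lay just short of the threshold in both directions. Npy1r (0.29 ± 0.09, adjusted p = 0.053) and Prrxl1 (0.36 ± 0.12, adjusted p = 0.069) were above 0. Pvalb (-0.27 ± 0.08, adjusted p = 0.051), Slc6a5 (-0.31 ± 0.10, adjusted p = 0.060) and Calb2 (-0.27 ± 0.09, adjusted p = 0.066) were below 0. Slc6a5 had 408, 429 and 521 CPM on the operated side and 470, 550 and 691 CPM on the opposite side as the lowest, median and highest values, and 4 of the 6 operated-side values lay below every value of the opposite side. The transporters of both classes were not called. Slc17a6 had a difference of -0.07 ± 0.06 with a 95% interval of -0.20 to 0.06, and Slc32a1 one of -0.19 ± 0.09 (adjusted p = 0.24). Gad1 was at 0.05 ± 0.07 and Gad2 at 0.00 ± 0.12.

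The remaining excitatory markers were not called. The ligand and receptor genes Tac2, Nmur2, Nmu and Tacr3 had differences of 0.36 ± 0.15, 0.34 ± 0.17, 0.24 ± 0.14 and 0.22 ± 0.11. The value was 0.18 ± 0.11 for Maf, 0.10 ± 0.05 for Rorb, -0.02 ± 0.04 for Rora, -0.11 ± 0.06 for Tacr1, 0.08 ± 0.13 for Slc17a8, 0.01 ± 0.17 for Grpr and -0.02 ± 0.22 for Npffr2. Among the other inhibitory markers it was 0.21 ± 0.09 for Pax8, 0.15 ± 0.09 for Lhx5, 0.09 ± 0.08 for Pax2, -0.06 ± 0.07 for Nos1 and -0.06 ± 0.08 for Lhx1. Of the 39 other dorsal horn neuron genes, 8 were called higher on the operated side and none lower, with a median of 0.23. Over all genes 3.49% were called higher and 3.22% lower. They were Gal (1.52 ± 0.18), Npy (0.84 ± 0.11), the opioid peptide genes Pdyn (0.50 ± 0.12) and Penk (0.31 ± 0.08), the natriuretic peptide receptor gene Npr1 (0.42 ± 0.11), the potassium channel partner gene Kcnip2 (0.36 ± 0.10) and the transcription factor genes Pou4f1 (0.36 ± 0.08) and Sall3 (0.35 ± 0.08). Of these 8 calls, those of Penk, Npr1 and Kcnip2 held in 19, 17 and 14 of 24 fits that each left out a library, and the other 5 in all 24.

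Genes of the ventral horn also differed between the sides in SNI mice. The motor neuron genes Chat (-1.49 ± 0.36), Slc5a7 (-2.0 ± 0.42) and Mnx1 (-2.90 ± 0.53) were called lower on the operated side in SNI mice, and the median of the 5 genes was -1.59. Their summed level was 17.1 to 103 CPM on the operated side and 91.7 to 270 CPM on the opposite side. All 8 microglial genes were called higher on the operated side, with a median of 1.26. Of 12 genes found in neurons at large, 3 were called lower and none higher, with a median of -0.12. Ventral interneuron genes, 10 in the list, summed to 12 to 18.6 CPM on the operated and 17.3 to 30.3 CPM on the opposite side, and 3 of them were called lower. Over all genes in this comparison, 3.22% were called lower and 3.49% higher. A model that also held the motor neuron level called none of the 32 markers between the sides, and 296 genes (1.64%). Tlx3 then differed by 0.06 ± 0.15, Calb1 by 0.02 ± 0.10, Grp by -0.05 ± 0.16, Lmx1b by 0.07 ± 0.14, Lbx1 by 0.06 ± 0.11, Ebf2 by 0.08 ± 0.14 and Gbx1 by 0.21 ± 0.17. Outside the 33 genes, Gal was at 1.07 ± 0.25 (adjusted p = 0.033) and Npy at 0.50 ± 0.14 (adjusted p = 0.087) in the same model. The motor neuron level itself differed between the sides in SNI, with medians of 2.09 and 3.51. The median SE of the markers rose from 0.098 to 0.137 in this model, which therefore cannot tell the side and the level apart well. Whether the motor neuron genes differed through the tissue sampled or through the injury was not tested.

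The number of calls rested on single libraries. Leaving out each of the 24 libraries in turn gave 2 to 13 called markers. Tlx3 and Gbx1 were called in all 24 of these fits, Calb1 in 23, Lbx1 in 17, Lmx1b in 14, Ebf2 in 10 and Grp in 7. Without female SNI contralateral replicate 3, 2 markers were called. The count was 3 without female SNI contralateral replicate 2, male SNI contralateral replicate 1, or male SNI ipsilateral replicate 2 or 3. It was 4 without female SNI ipsilateral replicate 1 or 2, or male SNI contralateral replicate 2 or 3. Without female SNI contralateral replicate 1, 10 were called higher and 3 lower.

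**Figure D4:**
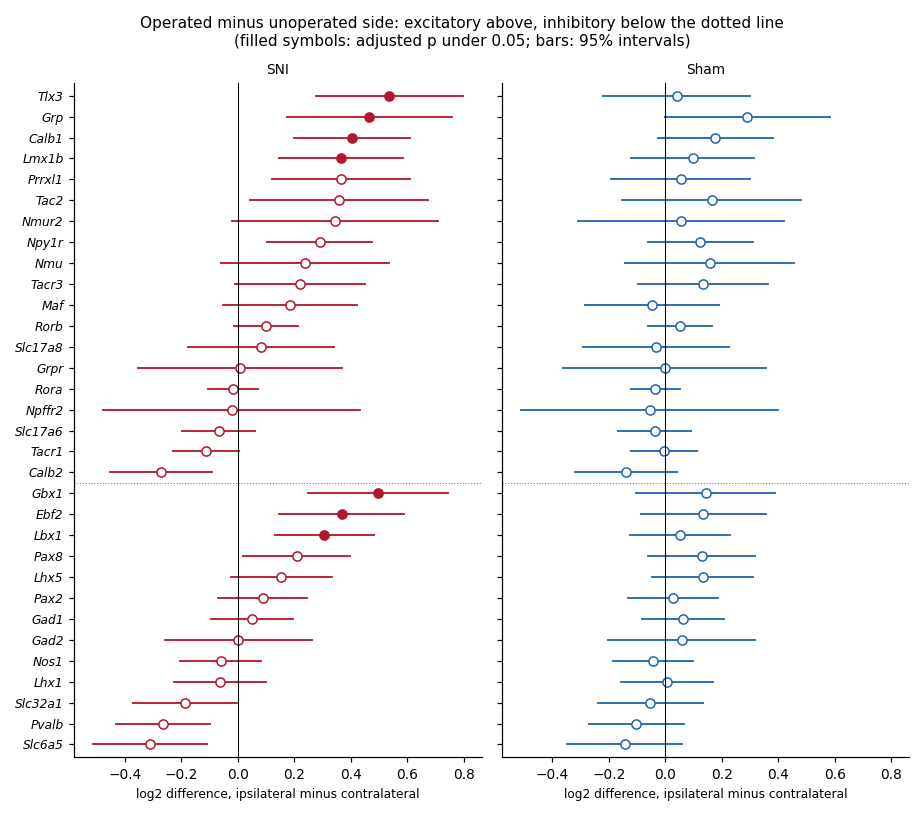
Log2 difference, operated minus unoperated side, of the 32 tested markers in SNI (left) and sham mice (right), with 95% intervals; filled symbols were called. The 7 filled markers in SNI lie between 0.31 and 0.54, and no marker was called in sham mice.

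In sham mice limma called no gene between the sides (0%), with 734 of 18058 genes at an unadjusted p under 0.05 (4.06%) and none of the 32 markers among them. No marker had sides that did not overlap, which held for 0.249% of genes. Marker differences ran from -0.14 to 0.29 with a median of 0.05, and the motor neuron genes had a median of -0.21. All 10 ventral interneuron genes lay below 0 in sham mice, with a median of -0.36, and 3 of them had an unadjusted p under 0.05. Grp came highest, at 0.29 ± 0.14, with a median of 7.92 CPM on the operated side and 7.15 CPM on the opposite side. The difference in sham mice was 0.04 ± 0.13 for Tlx3, 0.14 ± 0.12 for Gbx1 and 0.18 ± 0.10 for Calb1. The side difference in SNI less that in sham was tested as an interaction, which called 114 genes (0.631%) and none of the 32 markers. At an unadjusted p under 0.05 stood 3 markers and 5.6% of all genes. Tlx3 had an interaction of 0.50 ± 0.18 (unadjusted p = 0.011, adjusted p = 0.54), Gbx1 of 0.35 ± 0.17 and Lbx1 of 0.26 ± 0.12 (adjusted p = 0.87 each). A side difference of these markers that differed between SNI and sham was thus not shown. Gal (1.42 ± 0.26, adjusted p = 0.0067) was called, and no other of the 39 other dorsal horn genes was.

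The side difference in SNI was also fitted for each sex, a choice made after the values had been seen. In females 17 of 32 markers were called, 15 higher and 2 lower on the operated side, against 1831 of 18058 genes (10.1%), of which 5.32% of all genes were higher and 4.82% lower. In males none of the markers was called, against 315 genes (1.74%), and 5 markers and 8.59% of all genes had an unadjusted p under 0.05. The median difference was 0.37 in females and -0.09 in males. Gbx1 had 13.8, 13.2 and 15.4 CPM in the 3 female ipsilateral libraries and 9.71, 5.94 and 6.13 CPM in the 3 female contralateral ones, a difference of 0.99 ± 0.17. In males it had 9.34, 12.8 and 12 CPM ipsilaterally and 10.8, 11.3 and 11.8 CPM contralaterally, a difference of 0.00 ± 0.17. With 3 libraries a side, the values of the sides lay apart in females and overlapped in males. The share of all genes that lay apart at 3 libraries a side was not counted. Calb1 had 79.5, 69.1 and 61.7 CPM in female ipsilateral and 49.6, 38.7 and 33.8 CPM in female contralateral libraries. In males it had 51.6, 54.5 and 52.2 CPM ipsilaterally and 53.4, 55.4 and 48.1 CPM contralaterally. Grpr, the receptor gene of gastrin-releasing peptide, had 3.15, 2.90 and 2.56 CPM in female ipsilateral and 2.36, 1.71 and 1.49 CPM in female contralateral libraries. In males it had 1.48, 1.73 and 2.03 CPM ipsilaterally and 2.05, 2.85 and 3.35 CPM contralaterally, a difference of -0.62 ± 0.25 (adjusted p = 0.41). In males alone Gal (1.60 ± 0.26) and Npy (0.81 ± 0.16), both outside the 33 genes, were called.

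Pvalb and Calb2 were the 2 markers called lower in females, at -0.45 ± 0.11 and -0.44 ± 0.12. Calb2 had 122, 107 and 128 CPM in female ipsilateral and 128, 152 and 215 CPM in female contralateral libraries. The difference between the sexes was tested as an interaction, and none of the 32 markers was called, with 2 genes called in all (0.0111%). By unadjusted p under 0.05, 22 of the 32 markers passed, against 2583 of 18058 genes (14.3%). Above 0 lay 29 of 32 markers and 9170 of 18058 genes, and the markers were measured in the same libraries. The smallest adjusted p among the markers was that of Gbx1, at 0.082, with an interaction of 0.99 ± 0.24. Without female SNI contralateral replicate 1, 17 markers were called in this test, and without male sham ipsilateral replicate 1, 4 were called. The motor neuron level was 0.97 to 1.79 in female ipsilateral and 3.61 to 4.55 in female contralateral SNI libraries. In male ones it was 2.39 to 3.19 ipsilaterally and 3.09 to 3.40 contralaterally. A model that also held this level called none of the 32 markers in the interaction, but it cannot tell the level and the side apart well.

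The sexes were then compared over both surgeries and sides. No marker was called between females and males, against 98 of 18058 genes (0.543%), and the median difference, female minus male, was 0.00. Nmur2 (-0.32 ± 0.12, adjusted p = 0.43) and Grp (-0.28 ± 0.10, adjusted p = 0.37) had an unadjusted p under 0.05, as did 8.36% of all genes. Of the 39 other dorsal horn genes, Penk was called, lower in females as 0.426% of all genes were, at -0.27 ± 0.06 (adjusted p = 0.042), a call that held in 6 of 24 fits that each left out a library. On the operated side, the SNI minus sham difference of females less that of males was not called for any gene (0%), with 1791 of 17602 genes at an unadjusted p under 0.05 (10.2%). Among the markers 28 of 32 lay above 0, against 8729 of 17602 genes. The markers had a median of 0.21, and 5 had an unadjusted p under 0.05. The motor neuron genes had a median of -1.71 in the same contrast. A model that also held the motor neuron level called no marker in it either, and the cause of the marker values was not tested.

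Libraries of the same group also differed in their motor neuron level, and the markers were fitted against it within groups. Of 18058 genes, 469 had a called slope (2.6%), 273 of them positive (1.51%) and 196 negative (1.09%). Without scaling factors the split was 193 positive and 348 negative, with 6 markers negative and none positive. Among the markers 5 of 32 were called, all negative, and 27 of 32 slopes lay below 0, with 17 at an unadjusted p under 0.05 (16.3% of all genes) and a median of -0.15 log2 CPM per unit of motor neuron level against 0.00 over all genes. The 5 were Calb1 (-0.22 ± 0.04, adjusted p = 0.0079), Prrxl1 (-0.26 ± 0.05, adjusted p = 0.010), Gad1 (-0.15 ± 0.04, adjusted p = 0.018), Tlx3 (-0.27 ± 0.06, adjusted p = 0.020) and Grp (-0.30 ± 0.07, adjusted p = 0.023). Calb1, Grp and Tlx3 were also among the 7 markers called between the sides in SNI, and both fits use the same libraries.

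The slopes of several markers lay near 0. Slc6a5 had 0.01 ± 0.07, Slc32a1 -0.02 ± 0.06, Pvalb 0.01 ± 0.06, Tacr1 0.00 ± 0.04, Rorb -0.01 ± 0.04 and Lhx1 -0.01 ± 0.05, and Calb2, Rora and Maf had 0.06 ± 0.06, 0.04 ± 0.03 and 0.10 ± 0.08. Without male sham ipsilateral replicate 1 none of the 5 slopes was called and 157 genes were, and without female SNI contralateral replicate 1, 2 were called. Of the 39 other dorsal horn genes, Penk, Pdyn, Kcnip2, Tfap2b, Bcl11a and Lypd1 had called negative slopes of -0.19 to -0.27, and Npr3, a natriuretic peptide receptor gene, had a positive slope of 0.41 ± 0.06. Over all genes 1.09% had called negative and 1.51% called positive slopes. The calls of Tfap2b and Kcnip2 held in 11 and 5 of 24 fits that each left out a library.

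**Figure D5:**
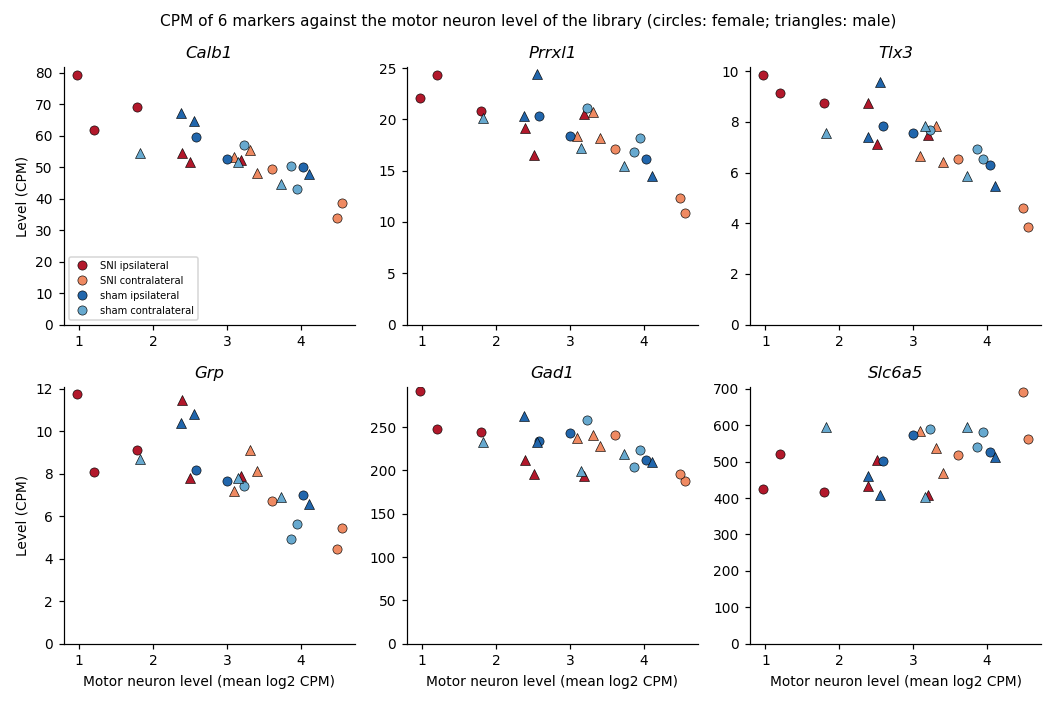
CPM of 6 markers against the motor neuron level (mean log2 CPM of 5 motor neuron genes) of each of the 24 libraries, coloured by surgery and side, with circles for female and triangles for male libraries. Within groups Calb1, Prrxl1, Tlx3, Grp and Gad1 had called slopes of -0.15 to -0.30, and Slc6a5 had one of 0.01.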

How the data were processed

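Each deposited table pairs gene identifiers with read numbers of 1 library, which the authors counted per gene with no normalization. These values are recorded under no standard unit because the format check could not read them as a count. Limma on log2 CPM was therefore used, and no test that fits a count distribution was run. Voom, which starts from the read numbers, was tried only as an alternative. The submitters' processing notes name STAR, GRCm38 and mm10. No version, counter or strand setting is given in the sources used here, so antisense overlap, which covers 24.9% of the exon length of Slc32a1 and 6.64% or less of other markers, could not be separated. Entries that name no gene, 5 per table, were left out; reads in no feature were 12.3% to 15.8% of all entries.

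Scaling factors came from trimmed means of M-values over the 24 mouse libraries (30% of ratios and 5% of levels trimmed) and ran from 0.942 to 1.03. Genes with about 10 reads in at least 3 libraries and 15 in all were kept, and a prior count of 2 was added, so fold changes of low genes are understated. Models of group means were fitted with limma 3.58.1 in R 4.3.3 (trend, robust, two-sided). Surgery contrasts, and their interaction with sex, used the 12 libraries of a side, and other contrasts used all 24. Errors are standard errors (SE), or SD over libraries where stated. The method was tested on simulated data. Libraries of a group differed by 6.50 to 33.9 chi-square per degree of freedom over 24 pairs, so none was treated as a duplicate. Symbols, exon lengths and positions came from a mouse annotation on GRCm38.

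The markers and the other gene lists were chosen with earlier results of these data known. All 33 markers are named. Of 39 other dorsal horn neuron genes, those called in a comparison are named; 1 further gene is not reported here. Other scalings, filters, prior counts, voom, a term for libraries titled 49 to 56, the motor neuron level as covariate and the omission of each library were tried as alternatives. Reads on genes were 75.4% to 76.1% of all entries in libraries titled 49 to 56 and 71.4% to 74.7% in those titled 33 to 48. The labels do not say why. All male sham libraries lie in titles 33 to 48, so surgery and this block are partly confounded. Fits for each sex and their interaction were added after values were seen. Rat libraries were not analysed here.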

Additional observations from a re-analysis of the deposited data

Results flagged for a closer look

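The lowest or highest of 6 libraries was compared with the rest in each group of surgery and side, for the 32 tested markers and the motor neuron level. Of 132 such groups, 5 held a value set apart (a gap to the nearest library above 0.625 of the group's range), where chance alone gives about 5% of groups. Calb2 reached 215 CPM in female SNI contralateral replicate 3, and the other 5 libraries of that group had 128 to 157 CPM. Npffr2 reached 1.13 CPM in female SNI ipsilateral replicate 1, Slc32a1 reached 234 CPM in female sham ipsilateral replicate 3, and Slc6a5 had 404 CPM in male sham contralateral replicate 1, the lowest of its group. The motor neuron level was lowest among sham contralateral libraries in male replicate 2, at 1.82. The side difference of Gal, a dorsal horn neuron gene outside the 33 markers, was larger in SNI than in sham mice by the interaction test, at 1.42 on the log2 scale.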

How the results depend on the processing

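None of the 32 markers was called between SNI and sham on the operated side under 8 of 9 other settings, and 1 was (Calb2, -0.21) with a term for libraries titled 49 to 56. Of the 365 genes called there, 234 were left in number with the motor neuron level as covariate and 67 in libraries titled 33 to 48. For the sides in SNI (1213 genes and 7 markers), the counts were 296 and 0 with the motor neuron level as covariate, 1831 and 17 in females alone, and 315 and 0 in males alone. Without the filter on low counts 3 markers were called. Other scalings, a smaller prior count, voom and the title term gave 7 to 10 markers there. Among the 15 markers and other dorsal horn genes called between the sides, 8 values changed sign. In males alone these were Lmx1b (-0.039), Lbx1 (-0.036), Ebf2 (-0.037), Pou4f1 (-0.045), Penk (-0.0064) and Kcnip2 (-0.043), and with the motor neuron level Grp (-0.049) and Penk (-0.011). Without the filter 1 gene was called between the sides in sham. For the sex difference of the sides in SNI (2 genes), 9 were called without the filter, 0 without scaling and 0 with the motor neuron level. Slopes were called for 709 genes, against 469, with the term for libraries titled 49 to 56. The cause of these changes was not tested.

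Leaving out each library in turn gave 273 to 431 genes and 0 to 1 markers for SNI against sham on the operated side, 0 to 1 genes and 0 markers on the other side, 618 to 2114 genes and 2 to 13 markers for the sides in SNI, and 0 to 1 genes and 0 markers for the sides in sham. The ranges were 99 to 154 genes and 0 markers for the interaction of side and surgery, 53 to 133 and 0 for females against males, 0 to 1 and 0 for the interaction of sex and surgery, 0 to 1127 and 0 to 17 for that of sex and side in SNI, and 157 to 613 and 0 to 6 for the slope. Between SNI and sham, Npy was called in 7 of 9 other settings and 6 of 12 fits without a library, Rspo3 in 6 of 9 and 11 of 12, and Gal in 7 of 9 and 12 of 12. All 3 were not called with the motor neuron level as covariate (Npy 0.31, Rspo3 0.50, Gal 1.10) or in libraries titled 33 to 48. The labels do not tie a library to an animal, and at this depth Slc17a7 could not be tested. No paired analysis was possible because the labels tie no library to an animal, and the replicate numbers used here were given in accession order and only name a library.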
